A study of Mus musculus with 10 samples.

Results

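The sperm ADAM genes were followed in testes of mice that lacked the RNA helicase MOV10. ADAM proteins are membrane proteins with a disintegrin and a metalloprotease domain, and the 10 genes described here encode members of the family that are made by male germ cells. They were chosen by name (Adam1a, Adam1b, Adam2, Adam3, Adam5, Adam18, Adam24, Adam25, Adam26a and Adam32). The rule used no measured value, but earlier results of these data were known when the choice was made. All 10 were found among the 55421 genes of the count files, which hold 33 numbered Adam genes in all.

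RNA-seq was available for 3 wild type (Mov10+/+) testes libraries, replicates 1, 2 and 3, and 3 Mov10-/- testes libraries, replicates 2, 3 and 4, all from mice at 21 days of age (P21), with 1 pair of testes per library. The Mov10-/- mice carried a global deletion that removes the first helicase domain. It was made from a floxed allele with Actb-Cre, which the beta-actin promoter drives in nearly all tissues, so that germ cells and somatic cells of the testis both lacked the gene. The mice came from crosses of heterozygotes on a mixed background of 129, C57BL/6 and FVB, and only the Mov10-/- animals that survived embryogenesis could be sampled. MOV10 CLIP-seq, in which RNA cross-linked to MOV10 is recovered with an antibody, was available in 4 further libraries from wild type P21 testes.

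Between 5083407 and 9230540 reads per RNA-seq library were counted on genes. Levels are given in CPM, that is reads per 1000000 (RPM in the study), with library sizes scaled by the TMM method. Mov10-/- replicate 3 had the fewest counted reads and the largest share of reads not aligned, 57.2% against 26.5% to 35.9% in the other 5 libraries. Wild type replicate 2 stood apart in its spermatid markers: the summed level of 20 spermatid markers was 1418 CPM there, 579 and 392 CPM in wild type replicates 1 and 3, and 126, 378 and 193 CPM in Mov10-/- replicates 2, 3 and 4. Mov10 itself was at 110 ± 11.9 CPM in wild type and 27.4 ± 1.38 CPM in Mov10-/- testes (SD, n = 3 each), with a log2 fold change of −2.0 (SE 0.12, adjusted p = 0.00552, edgeR quasi-likelihood test).

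As background, the sperm ADAMs work on the surface of sperm or while the sperm surface is assembled in the endoplasmic reticulum. ADAM2 pairs with ADAM1A in the endoplasmic reticulum and with ADAM1B on the sperm surface, and the ADAM1B and ADAM2 pair is known as fertilin. ADAM3, also called cyritestin, is needed for sperm to pass from the uterus into the oviduct and to bind the egg coat, and it does not reach the sperm surface in mice without ADAM2 or ADAM1A. ADAM24, ADAM25 and ADAM26A are the testases, made late in germ cell development.

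The members differ at a place that the choice of genes did not use. A catalytically competent ADAM protease holds a zinc-binding motif of histidines, a glutamate and a glycine in its metalloprotease domain, and sperm ADAMs can keep or lack it. The 30 coding bases at that place are shown for each member because they divide the family, and the same division is referred to beside the levels below. They were read from the transcripts of GENCODE M21 on mm10, 5′ to 3′ in the sense of the gene. Capitals mark the codons that match a residue of the motif. The motif has 5 fixed residues, of which the first 4 lie in these bases. The fifth, a histidine, is the next codon after them, which was compared as well but is not printed. For members without the motif the place was found by alignment to Adam24.
Adam1a: CACGAGctcgggCACaacctgGGTatccag
Adam1b: CACGAGctcgggCACaacctgGGTatccag
Adam24: CATGAGataggtCACaatttgGGCatgtca
Adam25: CATGAGatgggtCATaatctgGGTatggag
Adam26a: CACGAGatggggCATaacttcGGTatgaaa
Adam2: cagctgctgagcctcagcatgGGGctagcg
Adam3: cagttgctgggaattaacctgGGGttggca
Adam5: cagctgctgagcattggtatgGGCttaact
Adam18: caactgattggccttcacataGGAttaaca
Adam32: caaatgctggggctcagtctgGGGatatcg

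With that codon included, the motif was complete in 5 members, Adam1a, Adam1b and the 3 testases, and in the other 5 members the glycine codon alone matched. The Adam1a and Adam1b stretches were identical over 30 bases, and the testases differed from each other at 7 to 9 of the 30. The 5 members with the motif have their whole coding sequence in 1 exon. The 5 without it have 19 to 22 coding exons. Over the whole protein, Adam1a and Adam1b were 72.6% identical and the testases 48.0% to 51.5% identical to each other.

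The stretches lie on chromosome 5 for Adam1a (chr5:121520092-121520121, minus strand) and Adam1b (chr5:121501940-121501969, minus strand) and on chromosome 14 for Adam2 (chr14:66053844-66053873, minus strand). The other 7 members are on chromosome 8, in 3 places. Adam18, Adam3, Adam5 and Adam32 follow each other on the minus strand between 24602246 and 24948804. Adam24 and Adam25 lie on the plus strand, with starts at 40675077 and 40752208, beside the related germ line genes Adam20 and Adam39. Adam26a, on the minus strand from 43568278 to 43576707, lies between Adam26b and Adam34. The stretch shown for Adam3 is at chr8:24707421-24707450, and that for Adam24 is at chr8:40680518-40680547.

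Shared sequence sets how well reads can be assigned to a member. Of all 50-base stretches in its exons, Adam1b shared 32.4% with Adam1a, Adam25 shared 34.2% with other genes, Adam20 and Adam39 among them, and Adam26a shared 36.4% with other genes, among them Adam26b and Adam34. Adam2, Adam3, Adam5, Adam18, Adam24 and Adam32 shared none. Adam1a is the least certain member, with 77.8% of its 50-base stretches shared with other genes, Gm42878, Mapkapk5 and Adam1b among them. Of its 7508 annotated exon bases, 2725 do not overlap another gene on its strand. The predicted gene Gm42878 covers 4779 of the 7508 and Mapkapk5 covers 1805. Reads in the overlap would be ambiguous in the counting. Values for Adam1a, Adam1b, Adam25 and Adam26a carry this limit.

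In wild type testes the members ran from abundant to scarce, with no gap between the ranges of Adam1b and Adam24. Levels between genes were compared per kilobase of exon that does not overlap another gene on the same strand (mean CPM per kilobase ± SD, n = 3). Sequence shared with genes elsewhere was not taken out of these lengths. Adam3 was the highest at 77.2 ± 12.9, followed by Adam2 at 73.0 ± 9.51, Adam5 at 70.9 ± 10.3 and Adam32 at 62.7 ± 9.67. The ranges of neighbours among these 4 overlapped. Adam32 was separated from the next member, Adam18 at 42.2 ± 7.75, by ranges that did not overlap, and Adam1b followed at 35.7 ± 5.25. The testases and Adam1a came last, with Adam24 at 19.5 ± 15.6, Adam26a at 11.9 ± 9.70, Adam1a at 11.6 ± 8.24 and Adam25 at 9.28 ± 7.37, and each overlapped its neighbours, as Adam24 did with Adam1b.

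In Mov10-/- testes the first 6 places were in the same order, from Adam3 at 69.9 ± 18.3 to Adam1b at 29.3 ± 8.49 CPM per kilobase. The range of Adam1b did not overlap that of the next member, Adam1a, while the ranges of neighbours among the last 4 overlapped. Adam1a was at 3.64 ± 2.24, Adam24 at 2.65 ± 2.09, Adam26a at 2.16 ± 2.0 and Adam25 at 1.10 ± 0.646 CPM per kilobase. The last 4 members, which were the same in both genotypes and are called scarce here, all keep the zinc motif shown above. Adam1b also keeps it and was among the first 6, called abundant here.

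**Figure D1:**
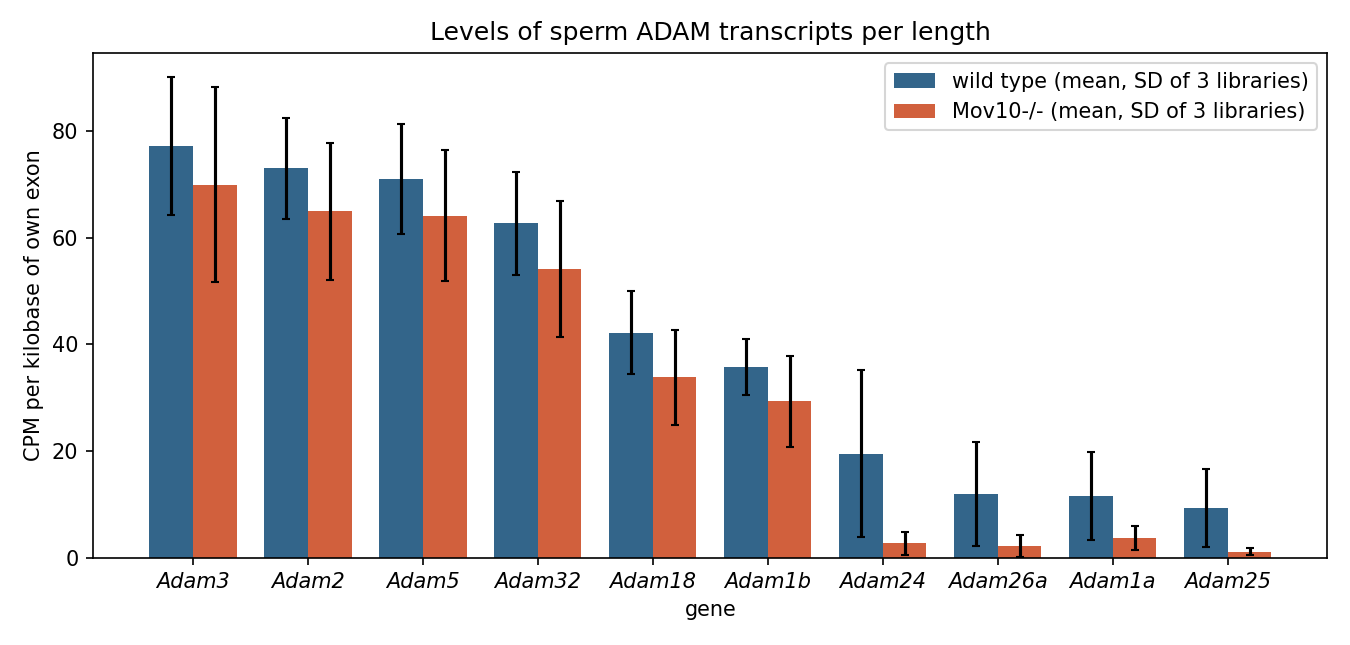
Level of each sperm ADAM gene in CPM per kilobase of exon not shared with a gene on the same strand; bars are means and error bars the SD of 3 wild type or 3 Mov10-/- libraries. Adam3, Adam2, Adam5 and Adam32 stand between 54.1 and 77.2 in both genotypes, and the 4 genes on the right stand at 9.28 to 19.5 in wild type and at 1.10 to 3.64 in Mov10-/- testes.

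The comparison of genotypes asks whether the absence of MOV10 goes with a different level of these transcripts. All 10 members passed the filter of more than 1 CPM in at least 3 of the 6 libraries and were tested with 20240 genes. The quasi-likelihood test of edgeR was used, and a call asked for more than a 2-fold difference with an adjusted p under 0.05. By this rule 0 of the 10 members were called, against a background of 0.00494% of all genes called lower, which is 1 gene, Mov10 itself. At an unadjusted p under 0.05, 4 members were lower in Mov10-/- testes (background 11.9%) and 0 were higher. All 10 fitted log2 fold changes lay below 0, from −3.11 to −0.15, with a median of −0.31, while the median over all genes tested was 0.03. The log2 fold change was below −1 in 4 members (background 9.78%). DESeq2 called 4 members lower (background 4.88%) and 0 higher (background 0.252%), and edgeR's exact test called 3 lower (background 5.09%) and 0 higher (background 0.346%), so that the call depended on the test. In these bulk libraries, fewer cells of a type and less RNA per cell cannot be told apart.

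The testases had the widest differences between genotypes. Adam24, testase 1, has been linked to the block against fertilization by more than 1 sperm. Its level was 38, 107 and 23.3 CPM in wild type replicates 1, 2 and 3, and 2.59, 14.3 and 6.02 CPM in Mov10-/- replicates 2, 3 and 4. The groups did not overlap, but the highest wild type library was 4.61 times the lowest. The log2 fold change was −2.93 (SE 0.73) with an adjusted p of 0.15 in the edgeR quasi-likelihood test, 0.0262 in DESeq2 and 0.00547 in edgeR's exact test.

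Adam25, testase 2, was at 20.9, 45.1 and 6.95 CPM in the wild type libraries and 1.36, 4.71 and 2.58 CPM in the Mov10-/- libraries. The lowest of these values rest on few reads, 11 to 23 per Mov10-/- library, and the groups again did not overlap. The log2 fold change of −3.11 (SE 0.73), the widest of the members, had an adjusted p of 0.15 in the edgeR quasi-likelihood test and 0.000745 in DESeq2. Adam26a, testase 3, was at 19.5, 57.1 and 12.1 CPM in wild type and 1.85, 11.0 and 3.19 CPM in Mov10-/- testes. Its groups were separated by the small gap between 12.1 and 11.0 CPM, and its log2 fold change was −2.51 (SE 0.78, adjusted p = 0.179, edgeR quasi-likelihood test). The 3 testases were thus the 3 members whose groups did not overlap, against a background of 14.1% of all genes tested that had this separation in the same direction. Wild type replicate 2 carried much of these differences: without it the log2 fold changes were −2.05 for Adam24, −2.32 for Adam25 and −1.62 for Adam26a.

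**Figure D2:**
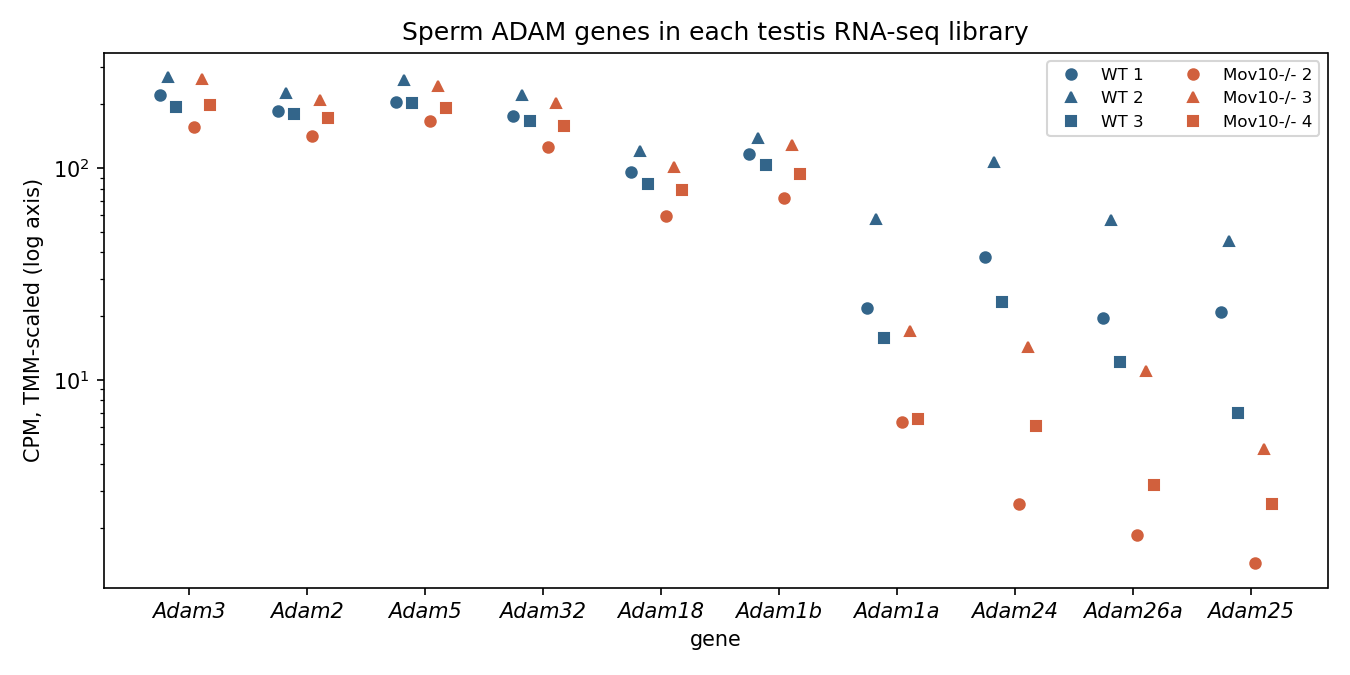
CPM (log axis) of each sperm ADAM gene in each of the 6 RNA-seq libraries, 3 wild type and 3 Mov10-/-. For Adam24, Adam25 and Adam26a all Mov10-/- points lie below all wild type points, while for the other 7 genes the points of both genotypes overlap.

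The genes of the ADAM1 and ADAM2 complexes had unequal differences. Adam1a was at 21.9, 57.4 and 15.8 CPM in wild type and 6.30, 17.0 and 6.51 CPM in Mov10-/- testes. The groups overlapped, because Mov10-/- replicate 3 lay above wild type replicate 3, and the log2 fold change was −1.70 (SE 0.58, adjusted p = 0.203, edgeR quasi-likelihood test). DESeq2 gave an adjusted p of 0.043, and without wild type replicate 2 the log2 fold change was −0.96. Adam1b, which forms fertilin with Adam2, was at 116, 138 and 103 CPM against 72.1, 128 and 93.4 CPM, with a log2 fold change of −0.29 (SE 0.21, adjusted p = 0.513, same test). Adam2 itself was at 185, 226 and 179 CPM against 141, 210 and 173 CPM, and its log2 fold change was −0.17 (SE 0.16, adjusted p = 0.607). Both genes of fertilin had overlapping groups.

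Adam3 and its neighbours on chromosome 8 had small differences. Adam3 was at 221, 268 and 193 CPM in wild type and 156, 263 and 198 CPM in Mov10-/- testes, a log2 fold change of −0.15 (SE 0.20, adjusted p = 0.734, edgeR quasi-likelihood test). The highest Mov10-/- library was close to the highest wild type library, and the sign of the difference was not stable: without Mov10-/- replicate 2 it was 0.01. Adam5, the neighbour of Adam3 on chromosome 8, was at 205, 259 and 202 CPM against 167, 243 and 192 CPM, with a log2 fold change of −0.15 (SE 0.16, adjusted p = 0.664). Adam32, the last gene of that row, had 176, 220 and 166 CPM against 126, 202 and 157 CPM and a log2 fold change of −0.22 (SE 0.18, adjusted p = 0.577). Adam18, the first of the row, had 95.5, 120 and 83.8 CPM against 59.3, 101 and 78.5 CPM and a log2 fold change of −0.33 (SE 0.21, adjusted p = 0.464). The 4 genes of this row, Adam18, Adam3, Adam5 and Adam32, all had overlapping groups and none of them has the zinc motif.

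The libraries took the same extremes in every member. All 10 were highest in wild type replicate 2 and lowest in Mov10-/- replicate 2, and in all 10 Mov10-/- replicate 3 was the highest Mov10-/- library. The share of all genes with these extremes was not counted, and they were not particular to the members. The summed spermatid markers had the same extremes. The summed spermatocyte markers were also lowest in Mov10-/- replicate 2, with Mov10-/- replicate 3 the highest Mov10-/- library. Averaged over the members, the log2 level relative to each gene's own mean was 0.43, 1.16 and 0.03 in wild type replicates 1, 2 and 3 and −1.07, 0.08 and −0.63 in Mov10-/- replicates 2, 3 and 4. Mov10-/- replicate 3 thus lay slightly above wild type replicate 3. Without Mov10-/- replicate 3, the groups of 9 members did not overlap, in place of 3, against a background of 21.9% of all genes tested in that 3-against-2 comparison. Leaving this library out could not lower the count, because it was the highest Mov10-/- library in all 10 members. Leaving out any other single library gave 3 or 4 members.

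Ratios between members within a library ask whether the members moved together, since a factor common to both genes of a pair cancels. The ratio of Adam24 to Adam3 was −2.30 ± 0.89 in wild type and −5.05 ± 0.86 in Mov10-/- testes (log2, SD, n = 3 each), and the 2 groups did not overlap. For Adam25 to Adam3 it was −3.59 ± 1.12 against −6.30 ± 0.52, and for Adam26a to Adam3 it was −3.24 ± 0.91 against −5.64 ± 0.95, again without overlap. By contrast, Adam5 to Adam3 was −0.03 ± 0.09 in wild type and −0.02 ± 0.11 in Mov10-/- testes, and Adam32 to Adam3 was −0.27 ± 0.06 against −0.34 ± 0.03.

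Adam2 to Adam1b, the fertilin pair, was 0.73 ± 0.06 in wild type and 0.86 ± 0.13 in Mov10-/- testes. Adam1b to Adam1a was 2.13 ± 0.76 against 3.43 ± 0.47, so that Adam1a was scarcer relative to its near copy in every Mov10-/- library. With 3 libraries against 3 a two-sided exact permutation test cannot go below p = 0.1, and the 4 pairs without overlap (the 3 testases to Adam3, and Adam1b to Adam1a) reached that value, which was 0.175 after adjustment over the 7 pairs. The exact permutation p was 0.2 for Adam2 to Adam1b and Adam32 to Adam3 and 1 for Adam5 to Adam3. None of the 7 pairs passed an adjusted p of 0.05, which this design cannot reach.

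The other ADAM genes of the germ line, of which 10 of the 11 listed were found and tested, were mostly scarce and had wide differences. As with the members, 0 of these 10 were called by the quasi-likelihood test. DESeq2 and edgeR's exact test each called 9 lower (backgrounds 4.88% and 5.09%). At an unadjusted p under 0.05, 9 were lower (background 11.9%). In 8 the Mov10-/- group lay below the wild type group without overlap (background 14.1%), and the median log2 fold change was −3.60. Adam20, the neighbour of Adam25, was at 31.6 ± 26.0 CPM in wild type and 4.96 ± 4.22 CPM in Mov10-/- testes, a log2 fold change of −2.72. Adam39, next to it, had −3.34, and Adam29 had −3.75. Adam6a and Adam6b, which male mice need for fertility, had −4.35 and −5.40, and Adam6b rested on mean levels of 17.1 ± 23.5 and 0.409 ± 0.355 CPM, so that its fold depends on few reads. Adam30 was the exception to this pattern, at 99.8 ± 25.1 against 69.1 ± 17.8 CPM, with a log2 fold change of −0.53. The adjusted p of these 6 genes in the edgeR quasi-likelihood test was 0.15 to 0.297.

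The 11 ADAM genes of somatic tissues had fitted differences nearer to 0. By the quasi-likelihood test, DESeq2 and edgeR's exact test 0 were called. Of the 11, 0 were lower and 1, Adam15, was higher at an unadjusted p under 0.05 (background 5.57% higher), and the median log2 fold change was 0.26. Adam10 and Adam17, proteases that shed proteins such as Notch and TNF from the cell surface, were at 107 ± 19.2 against 128 ± 23.0 CPM and 99.1 ± 10.6 against 105 ± 8.59 CPM. Adam9, which adjoins Adam32 on chromosome 8, was at 82.9 ± 16.4 in wild type and 100 ± 14.5 CPM in Mov10-/- testes, with a log2 fold change of 0.28. Adam15 was at 57.7 ± 1.80 against 69.0 ± 5.49 CPM, a log2 fold change of 0.26, and its groups did not overlap (background 11.9% higher). Adam23 had a log2 fold change of 0.34 and Adam11 one of −0.20. The adjusted p of these 6 genes was 0.272 to 0.712 in the edgeR quasi-likelihood test.

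**Figure D3:**
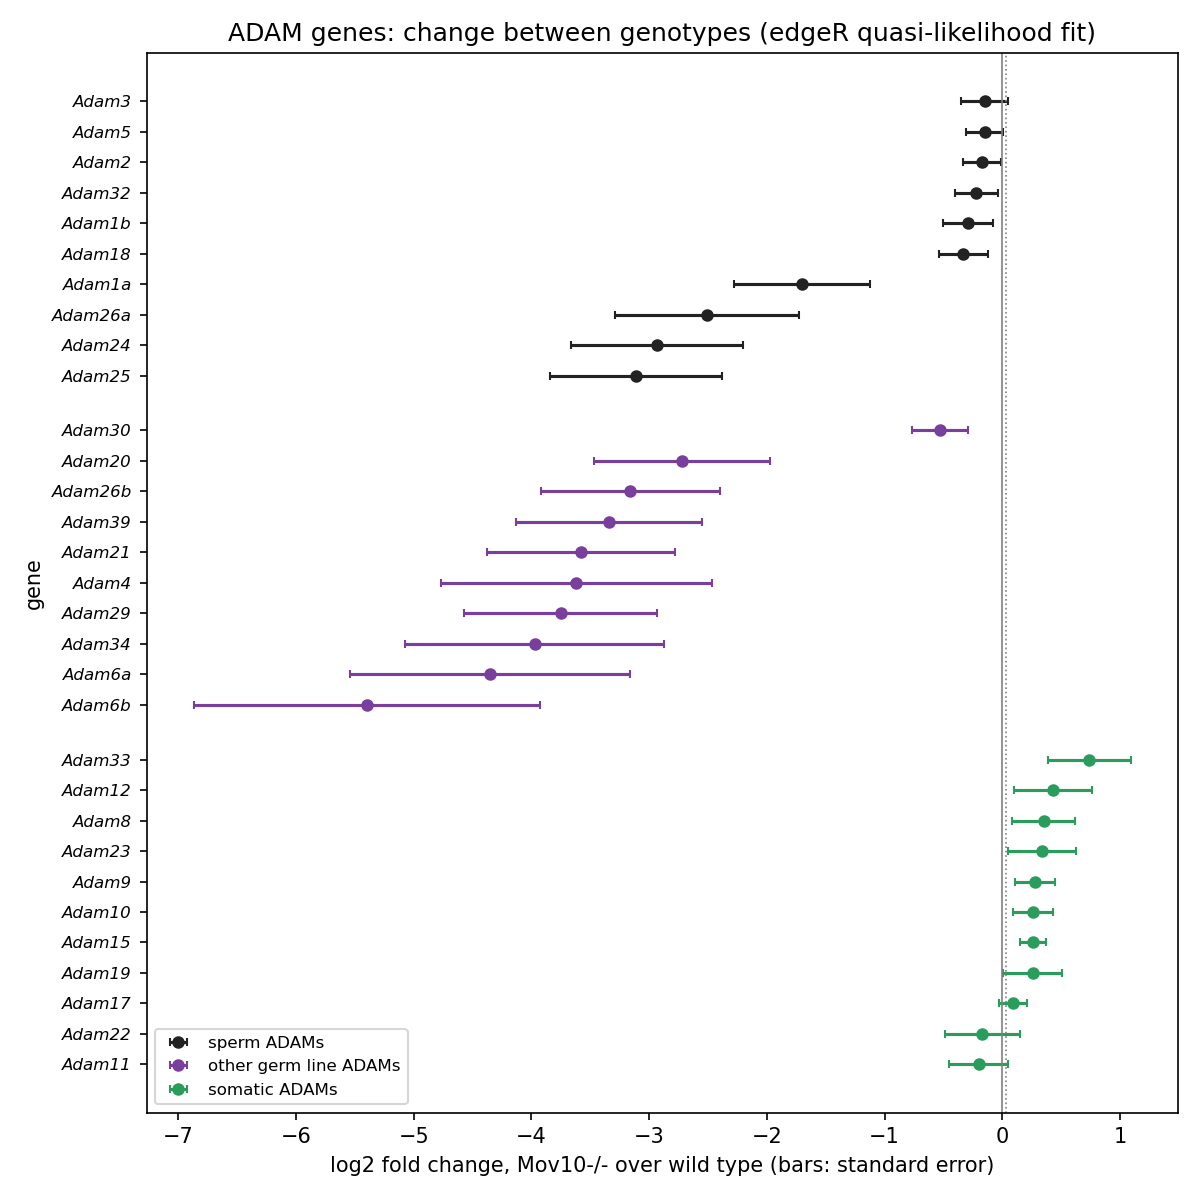
Log2 fold change of Mov10-/- over wild type for 10 sperm, 10 other germ line and 11 somatic ADAM genes; points are edgeR estimates, bars 1 standard error, the solid line is 0 and the dotted line the median of all genes tested, 0.03. Of the sperm ADAMs 6 lie between −0.33 and −0.15 and 4 between −3.11 and −1.70, while the somatic ADAMs lie between −0.20 and 0.74.

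As partners, 14 genes were listed whose products act on ADAM3 maturation or on the passage of sperm into the oviduct. Of these 13 were tested and 0 were called by the quasi-likelihood test. DESeq2 called 2 lower (background 4.88%) and edgeR's exact test 2 (background 5.09%). At an unadjusted p under 0.05, 3 were lower (background 11.9%) and 1 was higher (background 5.57%). Groups did not overlap in 4 that were lower (background 14.1%) and 1 that was higher (background 11.9%). The median log2 fold change was −0.18. The partners with the highest levels were close between genotypes. Clgn, the chaperone calmegin, was at 280 ± 29.0 and 267 ± 41.3 CPM, a log2 fold change of −0.07 (adjusted p = 0.824, edgeR quasi-likelihood test). Ace, whose germ line form is an angiotensin-converting enzyme, was at 133 ± 46.7 and 112 ± 9.80 CPM, and Lypd4 at 95.4 ± 16.7 and 83.7 ± 20.4 CPM. Tex101 and Ly6k, a pair of lipid-anchored surface proteins, had log2 fold changes of 0.16 and 0.11, and Cmtm2b one of −0.08. The adjusted p of Ace, Lypd4, Tex101, Ly6k and Cmtm2b was 0.614 to 0.852 in the same test.

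Some other partners, named after their values were seen, had lower levels in the Mov10-/- libraries. Pdilt, a disulfide isomerase-like chaperone that binds ADAM3 together with the lectin chaperone made by Calr3, was at 47.9, 105 and 26.1 CPM in wild type and 3.83, 18.0 and 7.99 CPM in Mov10-/- testes. The groups did not overlap, and the log2 fold change was −2.63 (SE 0.65, adjusted p = 0.15, edgeR quasi-likelihood test). Calr3 had a log2 fold change of −1.37 (adjusted p = 0.29, same test), also without overlap. So did Pmis2, at −1.60 (adjusted p = 0.204), and Prss55, at −6.52 (adjusted p = 0.15). Prss55 rested on 3, 0 and 1 reads in Mov10-/- replicates 2, 3 and 4. Prss37, a serine protease-like gene, failed the filter, at 4.57, 42.8 and 0.855 CPM in wild type and 0, 0.205 and 0 CPM in Mov10-/- testes. Tpst2, a sulfotransferase, was higher without overlap, at 23.1 ± 4.34 against 33.0 ± 2.31 CPM (adjusted p = 0.233).

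Markers of the cell types in the testis were read in the same libraries, because the first wave of germ cell development reaches the spermatid stage at about this age. Of the 20 spermatid markers 18 were tested. By the quasi-likelihood test 0 were called, while DESeq2 called 14 lower (background 4.88%) and edgeR's exact test 13 (background 5.09%). Of the 18, 16 were lower at an unadjusted p under 0.05 (background 11.9%). In 12 the Mov10-/- group lay below the wild type group without overlap (background 14.1%), and the median log2 fold change was −2.20. Their summed level was 796 ± 547 CPM in wild type and 233 ± 131 CPM in Mov10-/- testes (SD, n = 3 each), a ratio of 3.42, and the ranges of 392 to 1418 and 126 to 378 CPM did not overlap. Acrv1, a protein of the acrosome, was at 39.2, 88.6 and 26.5 CPM in wild type and 5.06, 25.2 and 9.09 CPM in Mov10-/- testes. Tnp2, a protein that replaces histones late in spermatids, was at 8.56, 47.3 and 2.57 CPM and at 0, 1.43 and 0.246 CPM. Acrv1 and Tnp2 were named after their values were seen.

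The order of the libraries by the summed spermatid markers (wild type 2, 1 and 3, then Mov10-/- 3, 4 and 2) was also the order of Adam24, Adam25 and Adam26a, and of these 3 members only. The share of all genes with this order was not counted. In the other 7, Mov10-/- replicate 3 lay above at least 1 wild type library. The part of the spermatid markers in the differences of the members was not tested.

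**Figure D4:**
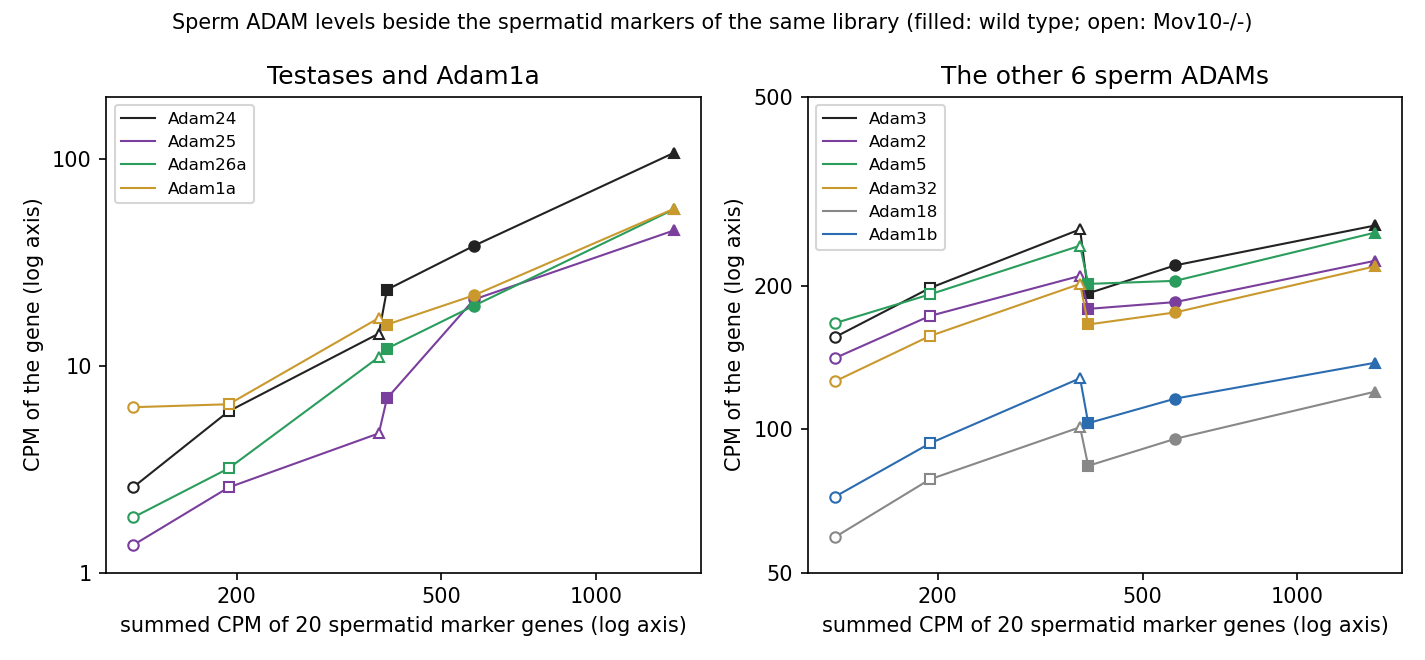
CPM of each sperm ADAM gene against the summed CPM of 20 spermatid markers in the same library (both log axes); filled symbols are wild type and open symbols Mov10-/- libraries, and lines join the libraries of a gene in order of the markers. The testases on the left rise with the marker sum over all 6 libraries, while the 6 genes on the right step down between Mov10-/- replicate 3 at 378 CPM and wild type replicate 3 at 392 CPM of markers.

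The summed markers of the stage before, spermatocytes, were close between genotypes. Their summed level over 15 genes was 1860 ± 111 CPM in wild type and 1841 ± 236 CPM in Mov10-/- testes, and the median log2 fold change was 0.05. At an unadjusted p under 0.05, 2 genes were lower (background 11.9%) and 0 higher (background 5.57%). Sycp3, of the axis of meiotic chromosomes, was at 73.0 ± 3.55 and 75.3 ± 3.77 CPM. In 2 genes, Spag6 and Cdc25c, the Mov10-/- group lay below the wild type group without overlap (background 14.1%). Their log2 fold changes were −1.69 and −0.66. In 1, Syce2, it lay above without overlap (background 11.9%), at 0.24. DESeq2 and edgeR's exact test each called 1 lower (backgrounds 4.88% and 5.09%). These spermatocyte genes were named outside the rule for named genes. For Sertoli cells, 9 of 10 markers passed the filter, and their median log2 fold change was 0.34, with 5 higher at an unadjusted p under 0.05 (background 5.57%). The summed levels of the Sertoli markers were 746 to 831 CPM in wild type and 898 to 1070 CPM in Mov10-/- testes. The Sertoli marker Rhox5 had 0 reads in 5 of the 6 libraries. Spermatogonia and Leydig cell markers had median log2 fold changes of 0.24 and 0.17. Their part in the results for the members was not tested.

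Outside the ADAM family, the protein-coding genes whose pattern over the 6 libraries was closest to the mean pattern of the members were Clnk, 1700066B19Rik, Zfp819, 1700001L19Rik and Zfp57. Likeness was the root mean square distance of log2 levels, each relative to the gene's own mean, and it was 0.0931 to 0.119 for these 5 of 15721 genes. Their log2 fold changes lay between −1.26 and −1.0, which is between those of the abundant members and of Adam1a. The mean pattern joins abundant and scarce members, and no single member had a log2 fold change in that range.

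MOV10 CLIP-seq gave almost no reads on the members. The 4 libraries held 3404 to 4934 reads on genes, only 0.026% to 0.0521% of all their reads. Between 99.5% and 99.6% of the reads in each were not aligned. The chi-square divided by the degrees of freedom was 0.219 to 0.237 among replicates 1, 2 and 3, which is closer than separate samples of reads would be, and 1.63 to 1.93 between each of them and replicate 5. Replicates 1, 2 and 3 were therefore averaged and counted as 1 library. In replicate 5, 2 reads fell on a member, 1 on Adam3 and 1 on Adam32, which was 0.0405% of its 4934 reads with an exact 95% binomial interval of 0.00491% to 0.146%. The averaged library had 0 of 3592 reads on a member. A count of 0 read as up to 3 counts allows a share of up to 0.0835%, and the exact 95% interval reaches 0.103%. These limits cover counting error only. In the RNA-seq libraries the members took 0.112%, 0.145% and 0.0998% of the reads on genes in wild type testes. All 3 shares lay within the interval of replicate 5, and for the averaged library the lowest lay within the exact interval and the other 2 above it, so that no difference between the assays was detectable in replicate 5 at this depth.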

How the data were processed

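For 3 wild type and 3 Mov10-/- RNA-seq libraries and 4 MOV10 CLIP-seq libraries of P21 mouse testes, the deposited files hold unnormalized read counts, 1 per Ensembl gene. Per the study's methods, the authors made poly(A)-selected stranded libraries for RNA-seq, trimmed adapters, aligned with STAR to mm10 and counted with htseq-count (versions and the strand setting are not given in the sources used here). The CLIP-seq libraries were made from RNA recovered with the MOV10 antibody, and for their processing the methods refer to an earlier study. Reads were counted on 55421 genes, and 55240 matched GENCODE M21, which gave names, coordinates and transcripts. The totals of reads off genes were left out of library sizes. The counts were fitted with edgeR 4.0.16 in R 4.3.3 (TMM, quasi-likelihood test, Benjamini-Hochberg adjustment over 20240 genes above 1 CPM in at least 3 of 6 libraries), and calls needed an adjusted p under 0.05 with more than a 2-fold difference. Standard errors were derived from the F statistic and are approximate. Ratios of members were compared by exact permutation tests. DESeq2 1.42.0, edgeR's exact test, limma 3.58.1 (voom), other normalizations and filters, a replicate block and each library left out were alternatives. The scripts were tested on simulated data.

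The members, lists and rules for named genes were chosen with earlier results of these data known. Named genes were the 10 members, Mov10, the 6 tested genes with the highest mean CPM of each ADAM or partner list, and the 5 genes closest in pattern. Nothing states that litters or cages were matched, so p-values measure the spread between these libraries. Transposable elements and read positions were not analysed here.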

Additional observations from a re-analysis of the deposited data

How the results depend on the processing

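The quasi-likelihood fit used here called 1 of all genes lower. The study, which also used edgeR, reported far more protein-coding genes as lower than this fit called. The count called lower was 988 with DESeq2, 1031 with edgeR's exact test, 5 without a filter on low counts and 145 with a replicate block. It was 0 to 2 with 1 library left out (0 on leaving out wild type replicate 3 or Mov10-/- replicate 3 or 4, and 2 on leaving out wild type replicate 1). The count called higher, 0 in the quasi-likelihood fit, was 51 with DESeq2, 70 with the exact test, 1 with limma voom, 5 without a filter and 36 with the block. The cause was not tested. Of the 10 members 0 were called in the quasi-likelihood fit, and 0 in that fit with each library left out. DESeq2 called 4 lower and the exact test 3. The quasi-likelihood fit with the replicate block called 1 lower, Adam24 (adjusted p = 0.0332). The number of members with groups that did not overlap was 3 to 9 with 1 library left out, where 9 is without Mov10-/- replicate 3, while 16% to 21.9% of all genes tested had groups separated this way (21.9% without Mov10-/- replicate 3).

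The members' median log2 fold change was −0.53 to −0.14 over the fits that leave out 1 library. Adam3 was at −0.36 to 0.01, changing sign without Mov10-/- replicate 2, and the difference in the ratio of Adam5 to Adam3 was −0.05 to 0.06. The differences in the ratios to Adam3 were −3.17 to −2.26 for Adam24, −3.32 to −2.21 for Adam25 and −2.93 to −1.89 for Adam26a. Same-numbered libraries had correlations of −0.47 and −0.346 in their deviations from the group means. Such deviations cancel within a group of 3 libraries, so these values cannot decide whether the replicate numbers pair the samples. Depth limits Adam25 most, at 11 to 23 reads per Mov10-/- library, and the CLIP-seq counts cannot rank members.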

Other observations

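Adam7, an ADAM gene of the epididymis whose protein sperm acquire after leaving the testis, was at 0.117, 0.818 and 5.88 CPM in wild type replicates 1, 2 and 3 and at 20.1, 0 and 0 CPM in Mov10-/- replicates 2, 3 and 4. Crisp1, another epididymal gene, was at 0.117, 12.7 and 24.5 CPM and at 69.8, 0.409 and 0.491 CPM. Adam7 and Crisp1 were named after their values were seen, and Rnase10 of the same list went otherwise, at 17.3, 22.6 and 7.27 CPM in wild type and 0.123, 7.98 and 0.123 CPM in Mov10-/- testes. The library with the highest values of Adam7 and Crisp1, Mov10-/- replicate 2, was the one in which all 10 sperm ADAM genes were lowest. The summed level of the 8 epididymal markers was 18.3 to 40.0 CPM in wild type and 1.6 to 93.9 CPM in Mov10-/- testes, and the marker Lcn8 had 0 reads in every RNA-seq library. The part of epididymal RNA in the results for the sperm ADAM genes was not tested. Without Mov10-/- replicate 2, 3 members had groups that did not overlap, as with all libraries (background 16.7%). This count could not have changed, because Mov10-/- replicate 3 was the highest Mov10-/- library in all 10 members.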
